A study of Mus musculus with 357 samples.

Results

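Fos, Jun and Egr1, 3 of the 96 genes measured, were followed in single hematopoietic stem cells (HSCs) of mouse bone marrow. They were chosen by name as immediate early genes, and every cell was assayed for all 3. The cells came from Col1a1-tetO-H2B-mCherry mice, in which an induced fluorescent histone is diluted as cells divide, and were isolated 5 weeks (5w) or 2 weeks (2w) after labelling. Both groups carried this transgene, and the cells of both were sorted as Lin-Sca1+c-kit+CD48-CD150+. The sources used here give neither the age nor the number of the mice, nor the driver of the tetO promoter. There were 91 cells on 5w plate 1 and 83 on 5w plate 2, against 90 on 2w plate 1 and 93 on 2w plate 2.

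Immediate early genes are transcribed within minutes of a growth factor, stress or adhesion signal, from transcription factors that are already present in the cell and without new protein synthesis. Their transcripts are short-lived. Fos and Jun encode leucine zipper proteins that pair as the AP-1 transcription factor, Fos only with a partner and Jun also with itself. Egr1 encodes a zinc finger transcription factor switched on by the ERK pathway, and mouse HSCs that lack it have been described as dividing and leaving the marrow more readily. The same genes are also induced when tissue is dissociated and cells are sorted, a step that all cells here went through.

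The sequences just upstream of Fos and Jun were searched for a few short motifs. In the RefSeq promoter table (GRCm38.p6) the Fos sequence is the plus strand of chr12:85473790-85473889 and the Jun sequence the minus strand of chr4:95052223-95052322. Each line gives the 100 bases before the annotated start, with the motif matches in capitals.
Fos: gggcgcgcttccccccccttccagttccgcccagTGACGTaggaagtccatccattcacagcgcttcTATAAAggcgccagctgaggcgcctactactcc
Jun: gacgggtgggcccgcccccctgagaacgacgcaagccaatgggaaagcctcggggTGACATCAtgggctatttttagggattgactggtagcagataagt
In Fos the capitals mark the core of the cyclic AMP response element, TGACGT, from -66 to -61, and the TATA sequence TATAAA, from -33 to -28. In Jun they mark TGACATCA, from -45 to -38, the site through which AP-1 dimers are known to act on Jun's own promoter. Both strands of the 250 bases before each start were searched, so elements further upstream were not covered. Of the 32851 promoters in the table, 6.47% held TGACGT, 12.4% held TATAAA and 2.93% held TGACATCA. The AP-1 letters TGANTCA, found in 6.75% of promoters, and the EGR1 letters GCGNGGGCG, found in 4.7%, were in neither window. The motif TGACATCA was chosen because it is known from the Jun promoter, so its match there is a description.

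Each reaction gave a threshold cycle (Ct), the cycle at which fluorescence passed a threshold, so that each cycle earlier stands for about 1 doubling of the template. A cell was counted as having a product at Ct 25 or below. Of the 34272 reactions, 13989 had no product and 60 had one later than Ct 25. The labels name no animal, so the cells of a chase time were 1 sample, and no test between times was made. Since a plate held cells of 1 time only, its chip and the chase time cannot be told apart, and the spread between the plates of a time is the only error given between groups. Intervals are exact Clopper-Pearson 95% intervals and cover counting error only.

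The plates differed in overall yield. The mean Ct of 14 assays found in nearly every cell was 12.8 ± 0.608 and 13.1 ± 0.672 on the 5w plates (SD over cells) and 13.5 ± 0.539 and 13.4 ± 0.526 on the 2w plates. Apart from the 3 genes, a cell had products of 58.4 and 56.4 assays on average on the 5w plates and of 54.3 and 52.5 on the 2w plates. The sort phenotype could be checked on its genes. Kit was found in 99.4% of 5w cells and 98.9% of 2w cells, and Cd48, the gene of the marker sorted against, in 1.72% and 1.09%. Ly6a, which encodes Sca1, was found in 73% of 5w cells and 91.3% of 2w cells, and Slamf1, which encodes CD150, in 55.7% and 72.1%. For Ly6a and for Slamf1 both 5w plates lay below both 2w plates, as for 7.29% of all 96 assays. Of 6 HSC genes 4 were measured. Hlf, at 99.4% of 5w and 99.5% of 2w cells, and Mllt3, at 95.4% and 95.1%, were near constant. Fgd5 was found in only 48.3% of 5w and 44.8% of 2w cells and Hoxb5 in 27% and 22.4%, with overlapping plates for both. Of 8 lymphoid markers 3 were measured. The B cell gene Ebf1 was found in 0 cells of either time, the T cell gene Tcf7 in 1.15% of 5w and 1.09% of 2w cells, and Dntt, the terminal transferase gene, in 6.9% and 8.74%. Of 7 granulocyte and monocyte markers 2 were measured, and they differed in direction. Csf1r, a receptor of monocytes, was found in 2.3% of 5w and 14.8% of 2w cells, and Cebpe, of granulocytes, in 6.32% and 4.37%, with overlapping plates for Cebpe. Most Csf1r products of the 2w plates came later than Ct 18, and their nature was not tested. All 4 measured of 6 erythroid and megakaryocyte markers had a higher share at 5w with plates apart. So did 42.7% of all 96 assays, and 4 genes are few. The nearest plates were close for Epor, at 25.3% on 5w plate 2 and 24.7% on 2w plate 2, and for Klf1, at 7.23% and 5.38%. Gata1 was found in 20.1% of 5w and 11.5% of 2w cells, Klf1 in 7.47% and 4.92%, Epor in 29.9% and 21.3%, and Itga2b in 51.1% and 39.9%. None of the 5 endothelial and stromal markers was among the 96 assays, and the part of other cells in the results below was not tested.

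Fos was the least often detected of the 3 genes at 2 weeks and the one whose share differed most between the times. It was found in 48 cells of 5w plate 1 and 23 of 5w plate 2, against 12 cells on each 2w plate. These counts were 52.7% (interval 42 to 63.3%) and 27.7% (18.4 to 38.6%) of the 5w plates, against 13.3% (7.08 to 22.1%) and 12.9% (6.85 to 21.5%) of the 2w plates. Both 5w plates lay above both 2w plates, and the 5w plates were also far from each other. Over both plates the share was 40.8% of 5w cells and 13.1% of 2w cells, which differ by 27.7 percentage points (14.4 to 39.8 over the 4 plate pairs). Without 5w plate 1 the difference was 14.6 points. Among all 96 assays, 42.7% had both 5w plates above both 2w plates, and the median difference was 2.85 points. The difference for Fos ranked as number 2 of the 96.

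The Ct values of the Fos products showed which reactions made up the share. On 5w plate 1 the earliest product came at Ct 16.7, the median at 21.5 and the latest counted at 24.7, with 1 further product at 26.4. On 5w plate 2 the lowest, median and highest Ct were 13.8, 16.2 and 23.9. On the 2w plates they were 15.6, 17.1 and 21.7 on plate 1 and 14.5, 16.3 and 17.6 on plate 2. Products of 5w plate 2 and of the 2w plates therefore lay mostly before Ct 18, and those of 5w plate 1 mostly after it. Of the detecting cells, 43 of 48 on 5w plate 1 and 4 of 23 on 5w plate 2 had a product later than Ct 18, against 1 of 12 and 0 of 12 on the 2w plates.

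**Figure D1:**
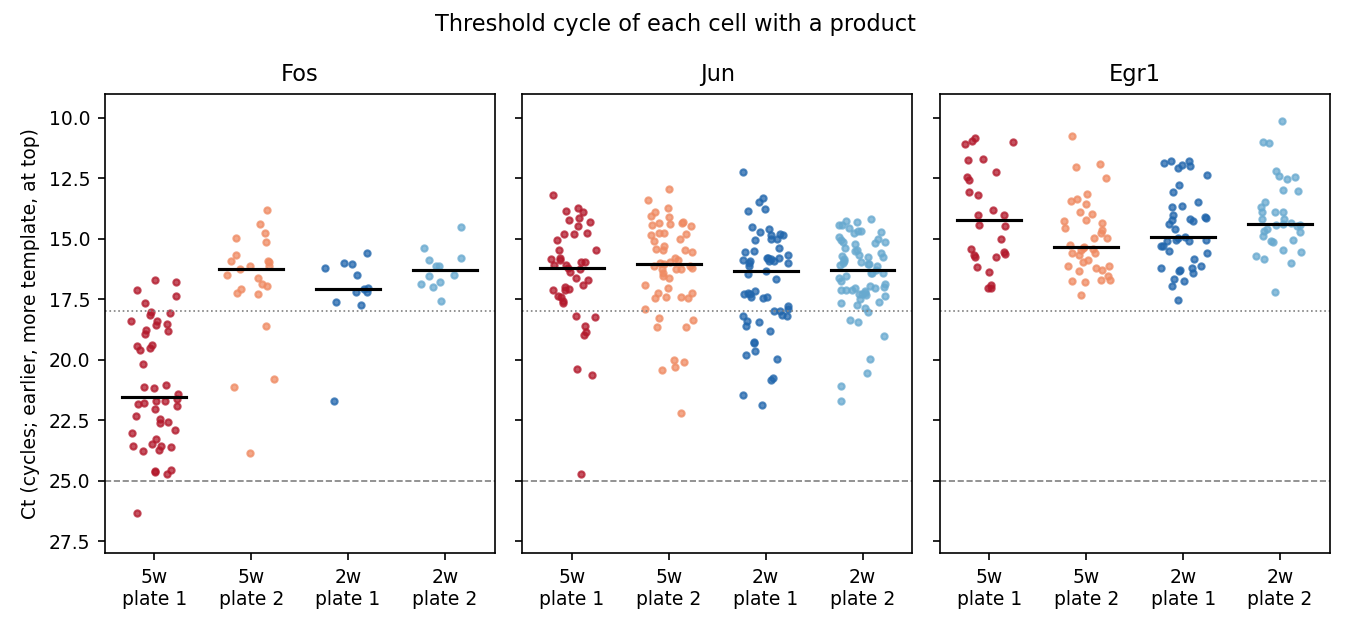
Threshold cycle of each cell with a product of Fos, Jun or Egr1, by plate, with the axis turned so that earlier products are at the top. Each point is 1 cell, black bars are medians of the counted products, the dashed line is Ct 25 and the dotted line Ct 18. The Fos median of 5w plate 1 lies at Ct 21.5 and those of the other 3 plates between 16.2 and 17.1, while no Egr1 product comes after Ct 18.

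Counted only to Ct 18, Fos was found in 5 cells (5.49%, interval 1.81 to 12.4%) of 5w plate 1 and 19 cells (22.9%, 14.4 to 33.4%) of 5w plate 2, against 11 cells (12.2%, 6.26 to 20.8%) and 12 cells (12.9%, 6.85 to 21.5%) of the 2w plates. The order of the plates thus changed, with 5w plate 1 the lowest and 5w plate 2 the highest, and the difference over both plates was 1.22 points. Counted to Ct 20 the shares were 20.9% and 24.1% on the 5w plates and 12.2% and 12.9% on the 2w plates, so both 5w plates were again higher, by 9.85 points over both. The 5w plates crossed as later products were counted. At Ct 22 they stood at 33% and 26.5%, against 13.3% and 12.9% on the 2w plates. The dye reports any double-stranded product, the sources used here do not say how a specific product was told from another, and the nature of the late products was not tested.

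**Figure D2:**
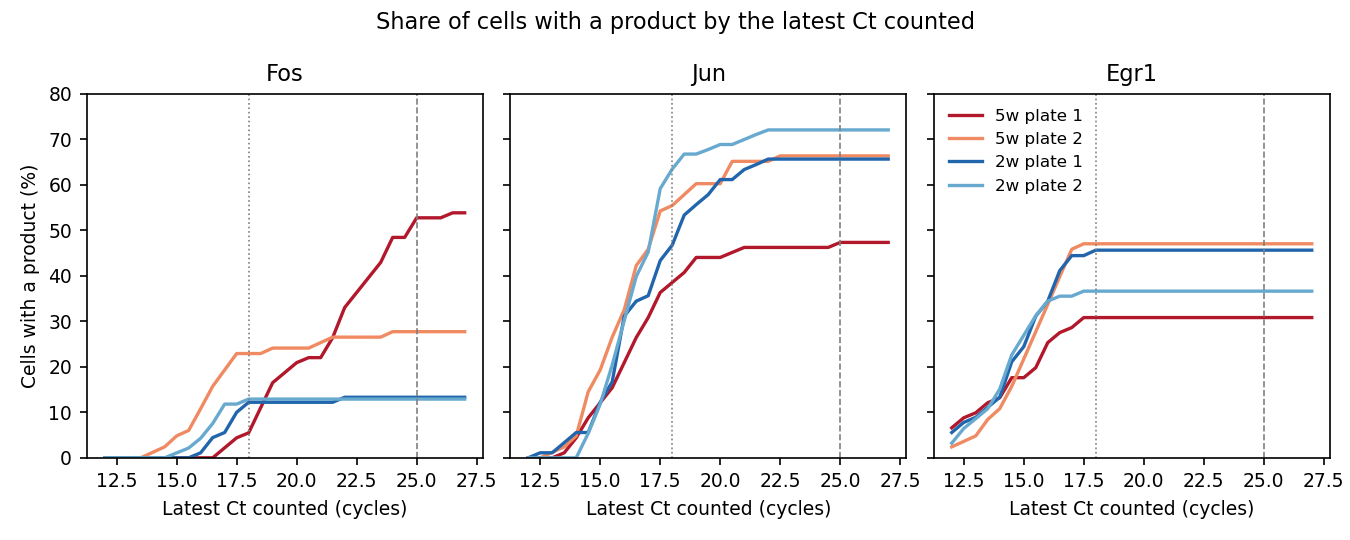
Share of cells with a product (%, vertical axis) by the latest Ct counted (cycles, horizontal axis), for each gene and plate. The dotted line is Ct 18 and the dashed line Ct 25. The Fos line of 5w plate 1 climbs from 5.49% at Ct 18 to 52.7% at Ct 25, while the Egr1 lines are flat beyond Ct 18.

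Late products were not a general property of 5w plate 1. Products later than Ct 18 and up to Ct 25 were found in 47.3% of its cells for Fos, 42.4 points above the next plate, which was 5w plate 2 at 4.82%. This excess ranked first among the 96 assays. The homeobox gene Nkx2-3 (assay Nkx2.3) followed with 76.9% and 62.7% on the 5w plates and 42.2% and 45.2% on the 2w plates, an excess of 14.3 points. Over all assays the median share of cells with a late product was 1.1% and 2.41% on the 5w plates and 1.11% and 1.08% on the 2w plates. Jun ranked 92 by this excess, and no Egr1 product was later than Ct 18 on any plate.

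**Figure D3:**
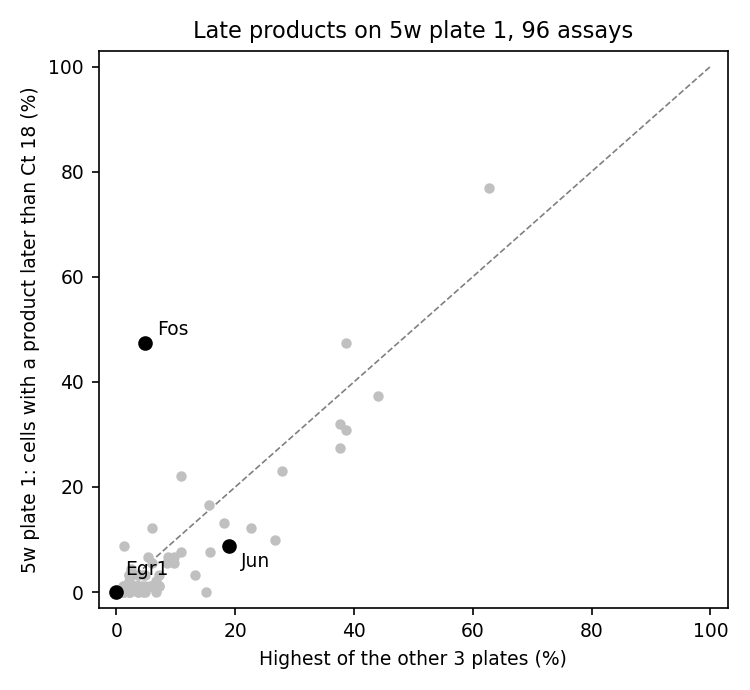
Share of cells with a product later than Ct 18 and up to Ct 25 (%) on 5w plate 1 (vertical) against the highest of the other 3 plates (horizontal), with 1 point for each of the 96 assays. The dashed line marks equal shares. Fos stands 42.4 points above the line, and the next assay 14.3 points.

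The level of a gene in a cell was taken as the mean Ct of the 14 reference assays minus the Ct of the gene, a log2 scale, over the cells with a product. Assays differ in efficiency, so levels are compared within a gene only. The Fos level averaged -8.05 ± 2.6 (SD over cells) and -3.86 ± 2.23 on the 5w plates, against -3.68 ± 1.66 and -2.82 ± 1.31 on the 2w plates. Both 5w plates lay below both 2w plates, though 5w plate 2 was only 0.18 below the nearer 2w plate. The difference over both plates was -3.44 (-5.24 to -0.18 over plate pairs) and was -0.61 without 5w plate 1. Among the 80 assays that had 10 or more detecting cells per plate, 43.8% had lower levels at 5w with plates apart and 30.0% higher, and the median difference was -0.13. A lower mean level came together with a larger share of detecting cells, and over all cells, with the missing products set to Ct 25, the Fos difference was 0.61. With the deposited Ct not centred, or centred on Actb and Gapdh, the Fos level differences were -2.91 and -3.14 and the plates overlapped.

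Jun was the most widely detected of the 3 genes on every plate but 5w plate 1. It was found in 43 cells (47.3%, interval 36.7 to 58%) and 55 cells (66.3%, 55.1 to 76.3%) of the 5w plates, against 59 cells (65.6%, 54.8 to 75.3%) and 67 cells (72%, 61.8 to 80.9%) of the 2w plates. The plates of the times overlapped, since 5w plate 2 was 0.71 points above 2w plate 1. Over both plates the share was 56.3% of 5w cells and 68.9% of 2w cells, a difference of -12.5 points (-24.8 to 0.71 over plate pairs) that ranked 93 of the 96 from the top. It was -2.59 points without 5w plate 1 and -21.6 points without 5w plate 2. Counted to Ct 25, 7.29% of the 96 assays had both 5w plates below both 2w plates. For Jun this order was found when counted to Ct 20, at 44% and 60.2% against 61.1% and 68.8%. The nearest plates were then less than 1 point apart. Counted to Ct 23 or to Ct 18 the Jun plates overlapped, as at Ct 25. At Ct 18 the shares were 38.5% and 55.4% on the 5w plates and 46.7% and 63.4% on the 2w plates.

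The timing of Jun products was alike on the 4 plates. The lowest, median and highest Ct were 13.2, 16.2 and 24.7 on 5w plate 1 and 12.9, 16.1 and 22.2 on 5w plate 2. On the 2w plates they were 12.2, 16.3 and 21.9 on plate 1 and 14.2, 16.3 and 21.7 on plate 2. The medians thus lay close together, and Jun products spanned many cycles on each plate. Late products, after Ct 18, were found in 8 and 9 cells of the 5w plates and in 17 and 8 cells of the 2w plates. The Jun level averaged -3.71 ± 2.21 and -3.31 ± 2.11 on the 5w plates and -3.29 ± 2.15 and -3.06 ± 1.56 on the 2w plates (SD over cells). The difference of -0.31 had plates apart by 0.02 at the nearest pair, and with the deposited Ct not centred or centred on Actb and Gapdh it was 0.26 and 0.09, with overlapping plates.

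Egr1 was found in about as many cells at both times, and its reactions gave either an early product or none. Its counts were 28 cells (30.8%, interval 21.5 to 41.3%) and 39 cells (47%, 35.9 to 58.3%) of the 5w plates, against 41 cells (45.6%, 35 to 56.4%) and 34 cells (36.6%, 26.8 to 47.2%) of the 2w plates. The 5w plates were the lowest and the highest of the 4. Both plates together gave 38.5% of 5w cells and 41% of 2w cells, a difference of -2.48 points (-14.8 to 10.4 over plate pairs), which was 6.0 points without 5w plate 1 and -10.2 without 5w plate 2. The difference between times was thus smaller than that between plates of 1 time.

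The Egr1 products came early. The lowest, median and highest Ct were 10.9, 14.2 and 17.1 on 5w plate 1 and 10.8, 15.4 and 17.3 on 5w plate 2. On the 2w plates they were 11.8, 14.9 and 17.5 on plate 1 and 10.1, 14.4 and 17.2 on plate 2. Every cell with a product was therefore counted the same at any limit from Ct 18 to Ct 25. The Egr1 level averaged -1.21 ± 1.98 and -1.81 ± 1.55 on the 5w plates, against -1.19 ± 1.57 and -0.5 ± 1.54 on the 2w plates (SD over cells). Both 5w plates were lower, by 0.68 over both and by 0.02 at the nearest pair, and the plates overlapped when the Ct was not centred, at -0.25, centred on Actb and Gapdh, at -0.31, or centred on the plate median, at -0.47. On 5w plate 2 the Egr1 products were unevenly placed. Rows A and G held 1 of 11 and 1 of 12 cells with a product, and rows D and E 9 of 12 each. Row counts were also uneven elsewhere. Egr1 on 5w plate 1 was found in 1 of 12 cells in row C and 7 of 12 in row B. Jun on 2w plate 2 was found in 3 of 12 cells in row F and 11 of 12 in row E. The rows named were the extremes of their plates, and the cause was not tested.

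**Figure D4:**
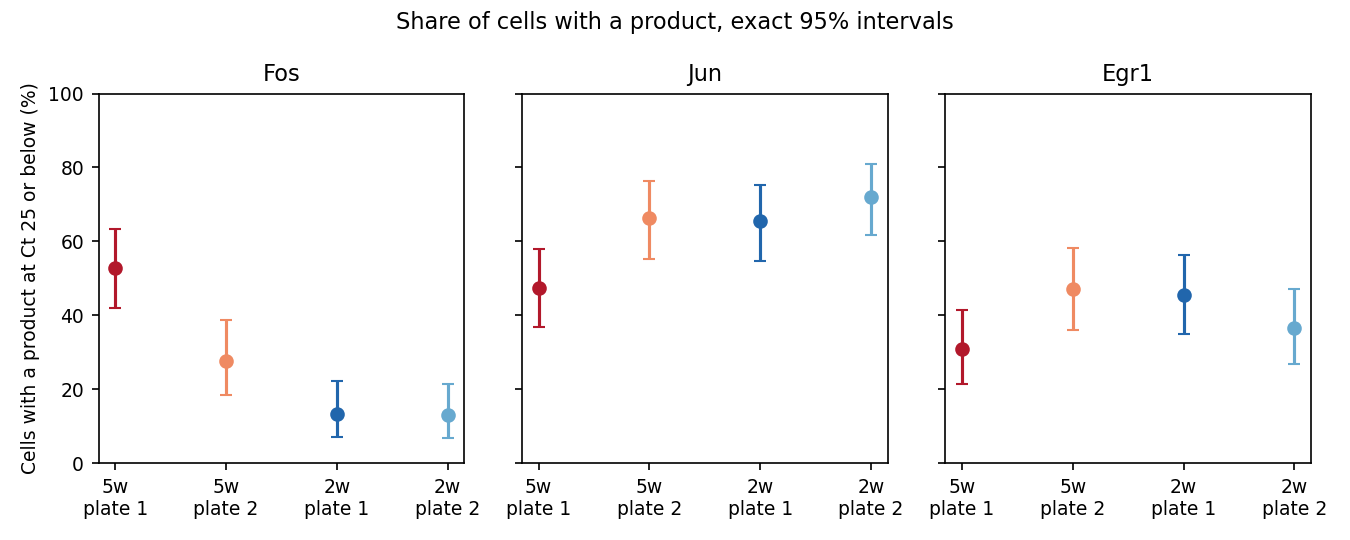
Share of cells with a product at Ct 25 or below (%) by plate for Fos, Jun and Egr1, with exact 95% intervals that cover counting error only. The 5w plates stand at 52.7% and 27.7% for Fos, above both 2w plates, and lie on both sides of at least 1 2w plate for Jun and Egr1.

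The spread of Ct among the detecting cells of a plate was above the median assay for Jun and Egr1 on each plate, and for Fos on each but 2w plate 2. The SD of the Fos Ct was 2.4 and 2.32 on the 5w plates, against 1.59 and 0.811 on the 2w plates. That of Jun was 2.16 and 1.95, against 2.11 and 1.6, and that of Egr1 2.03 and 1.52, against 1.61 and 1.53. The median over the 80 assays was 1.21 and 1.24 on the 5w plates and 1.06 and 1.13 on the 2w plates. Within a plate, the Ct of the 3 genes was weakly related to the yield of the cell. Spearman's rho between the mean reference Ct and the Ct of the gene, with missing products at 25, was -0.15 and 0.02 on the 5w plates and -0.0 and -0.07 on the 2w plates for Fos. For Jun it was 0.08 and 0.13 on the 5w plates and -0.06 and 0.03 on the 2w plates, and for Egr1 0.01 and -0.09 against 0.22 and -0.16. No gene kept 1 sign over the 4 plates, on 91, 83, 90 and 93 cells.

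Each combination of the 3 transcripts was found on each plate. A product of at least 1 of them was present in 82.2% of cells (interval 75.7 to 87.6%) at 5 weeks and 82.5% (76.2 to 87.7%) at 2 weeks. At least 2 were present in 78 cells (44.8%, 37.3 to 52.5%) at 5 weeks and 62 cells (33.9%, 27.1 to 41.2%) at 2 weeks. All counts in this paragraph were made to Ct 25 and include the late Fos products of 5w plate 1, 43 of 48 being later than Ct 18. Combinations of the 3 genes were not counted at an earlier limit. All 3 were present in 7 and 8 cells of the 5w plates, where the product of the plate shares gives 6.98 and 7.16. On the 2w plates all 3 were present in 6 and 6 cells, where it gives 3.58 and 3.16. None was present in 20 and 11 cells of the 5w plates (15.7 and 10.7 from the shares). On the 2w plates none was present in 15 and 17 cells (14.6 and 14.4 from the shares). Jun with neither of the others was found in 12 and 21 cells of the 5w plates and in 29 and 37 of the 2w plates. Fos with neither was found in 14 and 4 cells of the 5w plates, where the shares give 17.5 and 4.11. It was found in 1 cell on each 2w plate, where they give 2.25 and 2.13. On the 2w plates 22 of 24 Fos cells thus also held Jun or Egr1, and most would by the shares alone. Egr1 with neither was found in 4 and 10 cells of the 5w plates and in 14 and 7 of the 2w plates.

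**Figure D5:**
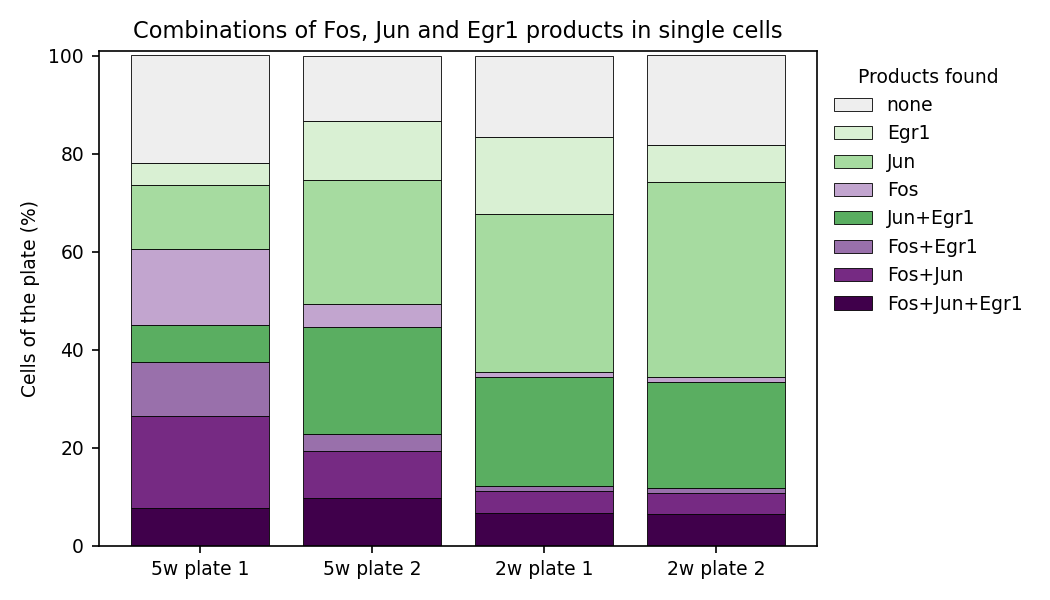
Cells of each plate (%) by which of Fos, Jun and Egr1 gave a product at Ct 25 or below. Purple segments hold Fos and green ones do not. Fos alone makes up 15.4% and 4.82% of the 5w plates and 1.11% and 1.08% of the 2w plates, while cells with all 3 products range from 6.45% to 9.64%.

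Taken in pairs over the 4 plates, the transcripts occurred together about as often as their separate shares give. Fos and Jun were both found in 24 and 16 cells of the 5w plates, where the product of the plate shares gives 22.7 and 15.2. On the 2w plates they were both found in 10 and 10 cells, where it gives 7.87 and 8.65. Over the 4 plates this was 60 cells against 54.4, a ratio of 1.1. Fos and Egr1 were both found in 17 and 11 cells of the 5w plates, with 14.8 and 10.8 from the shares, and in 7 and 7 cells of the 2w plates, with 5.47 and 4.39. The ratio over the plates was 1.19. For Jun and Egr1, 92 cells held both and the shares give 90.4, a ratio of 1.02. For both pairs with Fos, each plate held more cells with both products than the shares give when counted to Ct 25. Counted to Ct 18 this held for Fos and Jun, with a ratio of 1.31, but not for Fos and Egr1 on 5w plate 2, where 8 cells held both and the shares give 8.93. The Fos and Egr1 ratio over the plates was then 1.21.

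Across the cells of a plate the Ct of the 3 genes was weakly related. Spearman's rho between Fos and Jun was -0.01 and 0.12 on the 5w plates and 0.22 and 0.24 on the 2w plates. Between Fos and Egr1 it was 0.07 and 0.04 on the 5w plates and 0.14 and 0.15 on the 2w plates, and between Jun and Egr1 0.07 and 0.02 against 0.04 and 0.23. These cells share a plate and a run, and so many missing products leave little to rank. By the rho of their weakest plate the 3 pairs stood at 1357, 953 and 1139 of 3240 pairs of assays, in that order, and the first was Actb with Gapdh at 0.66. The median size of rho was 0.08 for Fos, 0.07 for Jun and 0.08 for Egr1, against 0.12 over all pairs.

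The assays closest to each gene were few and their relations weak. Of all 3240 pairs of assays, 40.5% had a rho above 0 on all 4 plates and 6.08% a rho below 0, so the shares above 0 given next were smaller than over all pairs. Fos had a rho above 0 on all 4 plates with 2.5% of the 80 assays, Egr1 and the HSC factor Hlf (0.02 and 0.16 on the 5w plates, 0.11 and 0.02 on the 2w plates). After them came Jun, the erythroid repressor Gfi1b and Nkx2-3. It had a rho below 0 on all plates with 5.0%, and among the lowest were Rb1, the retinoblastoma gene (-0.05 and -0.04 on the 5w plates, against -0.17 and -0.18 on the 2w plates), and CDK4. Jun had a rho above 0 on all plates with 12.5% and below 0 with 2.5%. Its closest were the histone methyltransferase gene Ezh1 (0.16 and 0.1 on the 5w plates, 0.07 and 0.14 on the 2w plates), Gapdh, the transglutaminase gene Tgm2, the platelet integrin gene Itga2b and the homeobox gene Hhex, and its lowest were Ly6a, Flt3 and Cebpb. Egr1 was above 0 with 11.2% and below 0 with 2.5%. Its closest were the bZIP repressor Nfil3 (0.15 and 0.11 on the 5w plates, 0.1 and 0.07 on the 2w plates) and Myc (0.24 and 0.12, against 0.12 and 0.06), then Fos, the replication licensing gene Cdt1 and the GATA partner Zfpm1. Its lowest were the progenitor genes Flt3, Cd34 (-0.1 and -0.01, against -0.24 and -0.17) and Csf2rb.

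Other genes of the pathway were measured in part. Of 22 further immediate early genes only Myc, a driver of growth, was among the assays, and it was found in 81.6% of 5w cells and 81.4% of 2w cells, with overlapping plates. Of 7 measured receptors that signal through ERK, upstream of Fos and Egr1, 2 had a higher share at 5w with plates apart and 1 a lower one, and 4 overlapped, with a median difference of 1.53 points. The higher ones were TEK, the angiopoietin receptor, at 64.9% of 5w and 47% of 2w cells, and Epor, the erythropoietin receptor, at 29.9% and 21.3%. Csf1r was the lower one, at 3.3% and 1.2% on the 5w plates and 12.2% and 17.2% on the 2w plates. Csf1r products later than Ct 18 were found in 11.1% and 15.1% of the cells of the 2w plates. They were found in no cell of the 5w plates. The lower Csf1r share at 5w thus rested on late products, whose nature was not tested. Kit, Flt3 and Csf2rb were among those that overlapped.

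Of 5 measured genes reported as regulated by AP-1 or EGR1, 2 were higher and 1 lower with plates apart, and the median difference was 0.0 points. Ccnd1, the cyclin D1 gene that AP-1 is known to induce, was found in 63.2% of 5w and 43.7% of 2w cells. Mdm2, which restrains p53, was found in 75.3% and 51.9%, and Cdkn1a, the gene of the p21 inhibitor of the cell cycle, in 2.87% and 12%. Trp53 was found in 100% of both, and Cdkn2a in 1.72% and 5.46%. None of the 3 that could be correlated (10% or more of the cells of each plate detecting) had the same sign of rho on all plates with Fos, Jun or Egr1.

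Cell cycle genes were counted because these factors act at the exit from quiescence. Of 9 measured drivers, 3 were higher at 5w with plates apart and 0 were lower, 6 overlapped, and the median difference was 0.188 points. Beside Ccnd1 these were CDK2, at 73.6% of 5w and 54.6% of 2w cells, and the cyclin gene Ccnd3, at 98.3% and 90.2%. Of 12 measured inhibitors, 3 were higher and 2 lower with plates apart, 7 overlapped, and the median difference was 3.14 points. The higher ones were Cdkn1b, which encodes p27, at 88.5% of 5w and 50.8% of 2w cells, Cdkn1c, which encodes p57, at 58% and 50.3%, and Cdkn2d at 74.1% and 68.9%. The lower ones were Cdkn1a and Gfi1, a repressor that restrains HSC division, at 8.05% and 13.7%. Set beside the 42.7% of all assays that were higher with plates apart, none of the pathway and cell cycle lists held a larger share of such assays. Against the 7.29% of all assays that were lower with plates apart, such assays were 1 of 5 AP-1 or EGR1 genes, 1 of 7 receptors, 0 of 9 drivers and 2 of 12 inhibitors, which are counts of very few genes.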

How the data were processed

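Per the labels' protocols, single cells were sorted into lysis buffer, reverse transcribed, pre-amplified for 22 cycles in multiplex, treated with exonuclease, diluted 5-fold and run for 30 cycles of quantitative PCR with EvaGreen on a microfluidic array. The deposited values are the authors' threshold cycles without normalization, with 999 where no product was called. How the threshold was set is not given in the sources used here. Each cell was placed by its labelled chase time and plate. No well was removed by a filter of 20% of assays detected. Shares counted products at Ct 25 or below. Reference assays were the 14 with a product in 95% or more of the cells of each plate, and levels were log2 differences from their mean in the cell. Correlations were Spearman's rho within a plate, undetected at 25, over assays with a product in 10% or more of the cells of each plate. No 2 cells had identical values. All 3 genes matched the RefSeq symbols of GRCm38.p6. The genes described were the 3 members, list genes with plates apart or among the 3 largest differences of their list, and for each member the 5 highest and 3 lowest assays by weakest-plate rho, of which some are not reported here. The members and lists were chosen with earlier results of these data known. The steps were tested on simulated plates. Alternatives were other Ct limits, centrings, summaries and filters, matched yield, and each plate left out. Python 3.11.15 was used with pandas 2.3.3, numpy 2.4.6 and scipy 1.17.1.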

Additional observations from a re-analysis of the deposited data

How the results depend on the processing

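Of 90 alternative values, 78 moved by less than the spread between plates (the SD over the plate pairs or plates), among them 2 of the Egr1 share difference that changed sign without a plate. Of the rest, 9 moved by more and 3 level differences changed sign. The count of 78 is a loose measure. It includes Ct limits that could not move the Egr1 share, since no Egr1 product was later than Ct 18. It also includes the Fos share difference without 5w plate 1, which fell from 27.7 to 14.6 points against a spread of 14.5. The difference in Fos share was 9.85 points at Ct 20 and 1.22 at Ct 18, and 14.6 to 39.6 with a plate left out. The Fos level difference was -0.26 at Ct 18, 0.61 over all cells, and -4.8 to -0.61 with a plate left out. The Jun level difference was 0.26 with no centring, 0.09 centred on Actb and Gapdh and -1.39 over all cells, and -0.54 to -0.14 with a plate left out. The values over all cells include the difference in reference Ct between the times. Leaving out a plate gave differences in share of -21.6 to -2.59 points for Jun and -10.2 to 6.0 for Egr1, and a level difference of -1.06 to -0.33 for Egr1. The mean rho of Fos and Jun, 0.14, was -0.06 over cells with both products. That of Fos and Egr1, 0.1, was 0.37 over such cells. The 0.37 averaged -0.02 and -0.01 on the 5w plates (17 and 11 cells) with 0.79 and 0.71 on the 2w plates (7 cells each). The mean rho of Fos and Egr1 was 0.3 for Ct minus reference Ct, which the yield of the cell enters on both sides. The Fos and Jun co-detection ratio of 1.1 was 1.31 at Ct 18. The cause of these changes was not tested. Matching the reference Ct between times left differences in share of 28 for Fos, -10.8 for Jun and -1.29 for Egr1. Reactions without a cell were not analysed here, which limits what a late product shows. No paired analysis was possible, because the labels name no animal and a plate held cells of 1 time only.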
